A study of Mus musculus with 24 samples.

Results

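The genes described here are 42 macrophage and myeloid cell genes, a list of markers of tissue macrophages, of their receptors and of cells recruited from the blood, matched by symbol within the 55487 gene identifiers counted in mouse muscle. Macrophages of resting muscle lie in the connective tissue between fibres and around vessels, where they clear debris, display antigen and make complement. Long-lived resident cells carry scavenger and endocytic receptors such as Lyve1, Cd163, Mrc1, Folr2 and Timd4, whereas cells newly arrived from blood monocytes carry the chemokine receptor Ccr2. Fc receptors bind antibody-coated material, C1q tags it for uptake, and MHC class II molecules present peptides from it to T cells.

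The study asked how photobiomodulation therapy (PBMT), exposure of the hind limbs to near-infrared light at 830 nm for 20 min, acts on muscle at rest and after exhausting exercise. RNA was counted in the left tibialis anterior muscle of 24 wild-type (WT) male C57BL/6J mice aged 5 to 7 weeks, in 4 groups of 6. Sedentary control and sedentary PBMT mice did not run. Fatigued control and fatigued PBMT mice ran on a treadmill to exhaustion, for times that differed between mice, and were sampled directly afterwards. Tissue was taken 24 h after the light, and control mice were shaved and anesthetised without light. Sedentary mice formed one sequencing project and fatigued mice another, each of 12 libraries, so effort and project cannot be told apart, and PBMT was compared with control inside each project.

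Total counts ran from 43271093 to 46904076 in sedentary control mice, from 46327516 to 52775844 in sedentary PBMT mice, from 56792327 to 68726155 in fatigued control mice and from 53122528 to 68566029 in fatigued PBMT mice. Levels are given as CPM (counts scaled to a common library total), and differences as log2 fold changes. A gene was called at an adjusted p under 0.05 over all genes tested. The 8 fast muscle fibre genes checked, Acta1, Ckm and Myh4 among them, summed to between 101646 and 166483 CPM in every mouse, as a fast muscle should show. The 42 macrophage and myeloid genes together summed to between 95.1 and 534 CPM.

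Per kilobase of exon and averaged over the 24 mice, the highest levels among the 42 genes belonged to Lyz2, the lysozyme of myeloid cells, at 26.2 CPM per kb, and to Cd74, the invariant chain of MHC class II, at 17.1 CPM per kb. The C1q subunit genes C1qb, at 8.93 CPM per kb, and C1qa, at 8.22 CPM per kb, came next, before the class II chains H2-Eb1, at 6.50 CPM per kb, and H2-Ab1, at 5.07 CPM per kb. On the same scale, Csf1r, the receptor of the growth factor that macrophages need to survive, was at 1.81 CPM per kb. Adgre1, which encodes the macrophage surface marker F4/80, was at 0.783 CPM per kb and Ccr2 at 0.376 CPM per kb. At the low end stood the lipid-sensing receptor gene Trem2, at 0.0539 CPM per kb, the fractalkine receptor gene Cx3cr1, at 0.0364 CPM per kb, and the integrin gene Itgax, at 0.0339 CPM per kb. These 3 genes did not pass the filter on low counts in sedentary muscle, and Cx3cr1 did not pass it in fatigued muscle, so that 39 and 41 of the 42 genes were tested there. All 42 passed it when the 24 mice were fitted together.

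In sedentary muscle, levels of the macrophage and myeloid genes were lower with PBMT than without it. The summed level of the 42 genes was 132 ± 40.4 CPM (SD, n = 6) in PBMT mice and 210 ± 72.9 CPM (SD, n = 6) in control mice, a ratio of 0.631. Its lowest, median and highest values were 142, 191 and 304 CPM in control mice and 95.1, 115 and 183 CPM in PBMT mice. The groups overlapped: control mice 1, 2 and 3 stood above every PBMT mouse, whereas control mice 4, 5 and 6 lay within the PBMT range. In bulk tissue, fewer macrophages and less of these RNAs per macrophage cannot be told apart.

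Gene by gene, 39 of the 39 members tested were lower with PBMT, in a list chosen with earlier results of these data known. Their log2 fold changes had a median of -0.68 and a range from -1.49 to -0.22, and 41 of 42 were lower when no filter was set, while 50.4% of all 14177 genes tested were lower, with a median of -0.0019. No single member was called by edgeR, where the count was 0 of 39 and 0.0282% of all genes tested (4 genes) were called in either direction. At an unadjusted p under 0.05, 25 of the 39 members were lower, against 4.30% of all genes tested, and 16 in a model of the 24 mice. With single mice left out, that count ran from 17 without sedentary control 1 to 32 without sedentary control 6. Among the 25, the exact permutation p was above 0.05 for Lyz2, Ctss, Tyrobp, Folr2, Cd74, H2-Eb1, Coro1a and C5ar1. It ran from 0.0584 for C5ar1 to 0.113 for Folr2 in these, and was under 0.05 in the others. The levels of 3 members, Ms4a4a, Siglece and Lyve1, did not overlap between the groups, against 0.275% of all genes tested that were lower without overlap. DESeq2 called 5 members lower, Ms4a4a, Ms4a6c, C1qb, C1qc and Cd163, while it called 22 higher and 38 lower of the 15938 genes given an adjusted p (0.376% in either direction). With edgeR, leaving out sedentary control 4 gave 3 calls, Ms4a4a, Ms4a6c and Ms4a6b, and leaving out sedentary PBMT 5 gave 1, Ms4a4a. These were the only 2 of the 12 fits without 1 mouse that called a member. Testing without the filter on low counts gave 2, Ms4a4a and Ms4a6c. The shares of all genes called in these fits are not given here.

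**Figure D1:**
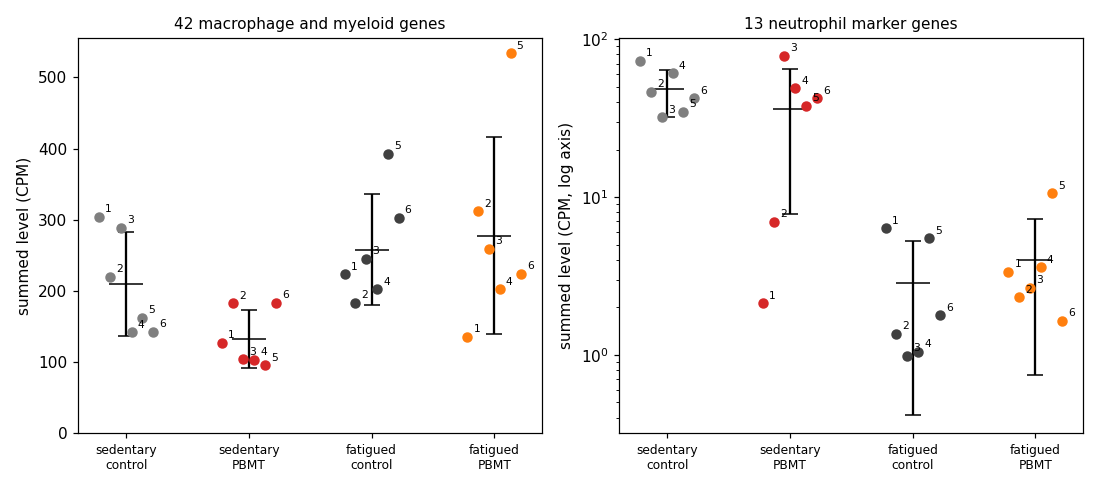
Summed level in CPM of the 42 genes and, on a log axis, of the 13 neutrophil genes in every mouse, by group, with the mean and SD. The sedentary PBMT mice lie between 95.1 and 183 CPM for all 42 genes, and fatigued PBMT 5 stands highest at 534 CPM.

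The Ms4a genes encode tetraspan membrane proteins, several of which are made by macrophages. As a group they had the lowest ratio of summed levels, 0.420. Their sum was 2.26, 5.58 and 9.14 CPM (lowest, median and highest) in sedentary control mice and 1.48, 2.36 and 3.09 CPM in sedentary PBMT mice, so that only the lowest control mouse lay within the PBMT range. All 5 were lower, with a median of -1.14, and 4 of the 5 at an unadjusted p under 0.05. Ms4a4a stood at 0.790, 1.48 and 2.43 CPM in control mice and at 0.30, 0.506 and 0.720 CPM in PBMT mice. Every PBMT mouse was below every control mouse for this gene. For this gene the log2 fold change was -1.49 (SE 0.283), with an edgeR adjusted p of 0.0896 and an exact permutation p of 0.00216, the smallest that 6 mice against 6 can give in a two-sided test. Ms4a6c stood at 0.790, 1.54 and 2.49 CPM in control mice and at 0.343, 0.638 and 0.960 CPM in PBMT mice, of which 4 of 6 were below the lowest control mouse. The gene differed by a log2 fold change of -1.28 (SE 0.271), with an edgeR adjusted p of 0.124 and an exact permutation p of 0.00649. Ms4a6b, Ms4a6c and Ms4a6d are close paralogs whose reads may be shared, so their separate values are uncertain.

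C1q is the recognition molecule of the classical complement pathway, and muscle draws it largely from macrophages. The 3 C1q genes and C5ar1, the receptor for the complement fragment that attracts myeloid cells, summed to 17.4, 22.2 and 34.4 CPM in sedentary control mice and to 9.00, 12.4 and 20.2 CPM in sedentary PBMT mice, a ratio of means of 0.542. All 4 were lower, each at an unadjusted p under 0.05, with a median of -0.87. C1qb was at 6.04, 8.07 and 12.6 CPM in control mice and at 2.77, 4.15 and 6.40 CPM in PBMT mice. A narrow overlap remained, with 4 of 6 PBMT mice below the lowest control mouse. The log2 fold change of C1qb was -0.95 (SE 0.25), with an edgeR adjusted p of 0.339 and an exact permutation p of 0.0216. C1qc was at 4.90, 6.87 and 9.81 CPM in control mice and at 2.10, 3.75 and 5.83 CPM in PBMT mice, where 5 of 6 lay below the lowest control mouse. Its log2 fold change was -0.89 (SE 0.230), with an edgeR adjusted p of 0.296 and an exact permutation p of 0.0108.

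Markers of resident macrophages also had lower summed levels with PBMT, and edgeR called none of them. The 5 genes summed to 14.1, 22 and 33.0 CPM in sedentary control mice and to 10.3, 14.6 and 19.6 CPM in sedentary PBMT mice, a ratio of 0.646, and 4 of the 5 were lower at an unadjusted p under 0.05, with a median of -0.76. Lyve1, a hyaluronan receptor, was at 2.39, 2.80 and 3.48 CPM in control mice and at 0.687, 1.80 and 2.30 CPM in PBMT mice, with no overlap. The fitted log2 fold change was -0.76 (SE 0.225), with an edgeR adjusted p of 0.351 and an exact permutation p of 0.00216. Lymphatic endothelium also makes Lyve1. The 6 lymphatic endothelial genes listed, 1 of which had no counts in any mouse, summed to 11.2 ± 1.06 CPM in control mice and 11.6 ± 0.857 CPM in PBMT mice (SD, n = 6). The part of lymphatic cells in the Lyve1 difference was not tested.

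Of the 4 markers of recruited monocytes and dendritic cells, Ccr2 and the integrin gene Itgam were tested, both lower and neither at an unadjusted p under 0.05. Their role group summed to 1.01, 3.66 and 6.39 CPM in sedentary control mice and to 1.54, 2.71 and 4.17 CPM in sedentary PBMT mice, so the PBMT mice lay inside the control range. Ccr2 itself was at 0.417, 2.83 and 4.37 CPM in control mice and at 1.14, 2.14 and 3.39 CPM in PBMT mice. For this gene the log2 fold change was -0.22 (SE 0.481), with an edgeR adjusted p of 0.911 and an exact permutation p of 0.859. That value came to 0.01 without sedentary control 1 and to 0.0051 with replicate number as a block, so its direction did not hold. Itgax was at a median of 0.128 CPM in control mice and 0.0312 CPM in PBMT mice, whereas Cx3cr1 was the single member with a higher median in PBMT mice, 0.185 against 0.107 CPM. Neither was tested.

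The ratio of the summed resident to the summed recruited markers was 9.12 ± 6.14 in sedentary control mice and 5.71 ± 1.31 in sedentary PBMT mice (SD, n = 6). It ran from 4.55 to 20.5 in control mice and from 4.14 to 7.75 in PBMT mice, and its highest values, in control mice 4 and 6, came from low recruited sums of 1.21 and 1.01 CPM. In fatigued mice the ratio was 11.9 ± 4.97 (4.65 to 17.4) in control mice and 10.1 ± 4.04 (4.90 to 16.8) in PBMT mice. All 4 ranges overlapped. The lowest value of each fatigued group was in mouse 5, which had the highest recruited sum of its group, 9.62 CPM in fatigued control 5 and 13.7 CPM in fatigued PBMT 5. Ccr2 made up 67.7% of the recruited sum over all mice, and the origin of the cells was not tested.

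Genes of macrophage identity, which include the myeloid transcription factor gene Spi1, the lysosomal glycoprotein gene Cd68 and the sialic acid receptor gene Siglec1 beside Adgre1 and Csf1r, summed to 11.3, 15.5 and 26.9 CPM in sedentary control mice and to 7.70, 10.6 and 15.2 CPM in sedentary PBMT mice, a ratio of 0.669. The 5 genes were lower by a median of -0.55, of which 2 at an unadjusted p under 0.05. Adgre1 was at 1.25, 2.07 and 4.67 CPM in control mice and at 0.644, 1.20 and 2.94 CPM in PBMT mice, with 3 of 6 PBMT mice inside the control range. The gene differed by a log2 fold change of -0.68 (SE 0.373), with an edgeR adjusted p of 0.669 and an exact permutation p of 0.132. That value was -0.38 without sedentary control 1 and -0.99 without sedentary PBMT 6.

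The lysosomal and pattern recognition genes were Lyz2, the protease gene Ctss, the lipopolysaccharide co-receptor gene Cd14 and Siglece, an inhibitory sialic acid receptor of myeloid cells. They summed to 26.0, 39.1 and 71.6 CPM in sedentary control mice and to 17.7, 28.0 and 38.7 CPM in sedentary PBMT mice, a ratio of 0.655 in which Lyz2 made up most of the counts. Siglece was at 0.307, 0.408 and 0.588 CPM in control mice and at 0.0613, 0.164 and 0.259 CPM in PBMT mice, with every PBMT mouse below every control mouse. Its log2 fold change was -1.33 (SE 0.336), with an edgeR adjusted p of 0.290 and an exact permutation p of 0.00216. The gene had between 3 and 38 counts per mouse, so its levels carry a large counting error.

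Fc receptors and their signalling adaptors, Fcgr1, Fcgr2b, Fcgr3, Fcer1g, Tyrobp and Trem2, summed to 6.04, 11.7 and 18.8 CPM in sedentary control mice and to 5.10, 6.72 and 9.18 CPM in sedentary PBMT mice, a ratio of 0.581. The 5 tested were lower by a median of -0.79, and 4 of them at an unadjusted p under 0.05. Fcgr2b and Fcgr3 share much of their sequence, so reads may be shared between them. The class II genes Cd74, H2-Aa, H2-Ab1 and H2-Eb1, where related H2 chains may share reads too, summed to 36.7, 59.8 and 118 CPM in control mice and to 27.6, 34.8 and 73.3 CPM in PBMT mice, a ratio of 0.643 and a median of -0.65, with 2 of 4 at an unadjusted p under 0.05. Genes made by leukocytes in general, Ptprc, Laptm5, Cd53, Coro1a and Aif1, summed to 9.03, 11.5 and 19.8 CPM in control mice and to 7.05, 8.14 and 10.8 CPM in PBMT mice, a ratio of 0.686 and a median of -0.50, with 2 of 5 at an unadjusted p under 0.05.

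**Figure D2:**
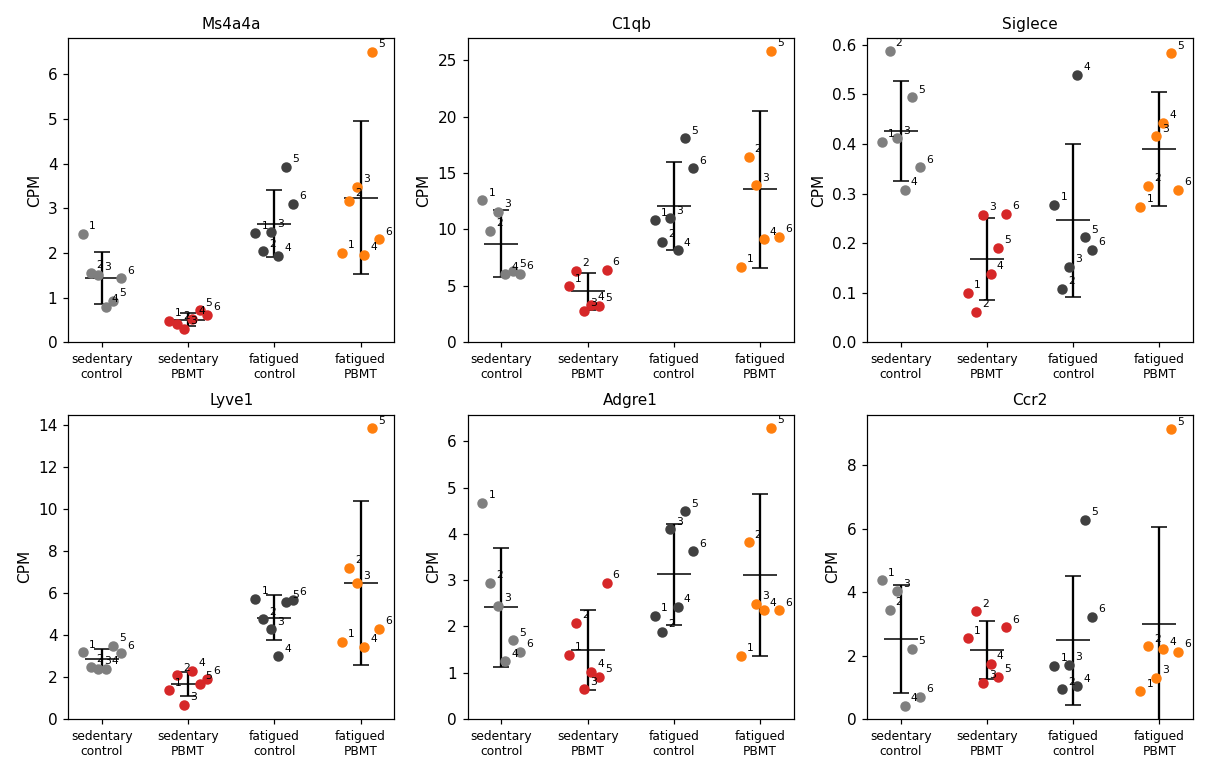
Level in CPM of Ms4a4a, C1qb, Siglece, Lyve1, Adgre1 and Ccr2 in each mouse, with replicate numbers, the group mean and SD. For Ms4a4a, Siglece and Lyve1 the sedentary PBMT mice all lie below the sedentary control mice, whereas for Ccr2 the groups overlap.

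Mice of one group differed from each other for most of these genes at once. Among the 39 genes tested in sedentary muscle, control 1 was the highest of the 12 mice for 26 genes and control 3 for 8, while control 4 was the lowest control mouse for 23. PBMT 3 was the lowest of the 12 mice for 13 genes and PBMT 5 for 11. With sedentary control 1 left out, the median log2 fold change was -0.55, and 38 of the 39 genes were lower. Over all genes, sedentary control 4 stood far from its group, with a chi-square per gene of 433 to 466 against each other control mouse and at most 121 for any other pair of mice in a group. Without it the ratio of summed levels was 0.593 and the median -0.77.

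Markers of other cells were listed beside the macrophage genes in the same libraries. The 13 neutrophil genes, of which S100a9 had the most counts and Elane and Mpo were at or near 0, summed to between 32.1 and 73.1 CPM in the 6 sedentary control mice. Sedentary PBMT 1 and 2 were at 2.12 and 6.98 CPM, and the other 4 sedentary PBMT mice at 37.7 to 78.6 CPM. Of the 10 neutrophil genes tested in sedentary muscle, 9 were lower with PBMT, none at an unadjusted p under 0.05 or called by DESeq2, and S100a9 differed by -0.42 (SE 0.632, edgeR adjusted p 0.864) and Csf3r by -0.52 (SE 0.519, edgeR adjusted p 0.781). With sedentary PBMT 1 and 2 left out, a choice made after seeing the data, 39 of 39 macrophage and myeloid genes were lower. Of these, 25 were at an unadjusted p under 0.05, the median was -0.83, and edgeR called 0. The part of neutrophils in the result was not tested.

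Fibroblast genes, of which Col1a2 had the most counts, summed to 1167 ± 214 CPM in sedentary control mice and to 1003 ± 311 CPM in sedentary PBMT mice (SD, n = 6). All 8 were lower, by a median of -0.18, with Col1a2 at -0.16 (SE 0.231, edgeR adjusted p 0.858) and 1 at an unadjusted p under 0.05, Ly6a at -0.26 (SE 0.105, edgeR adjusted p 0.607). Mast cell genes were lower for 5 of 5 tested, by a median of -0.41, with Mcpt4 the most abundant at -0.41 (SE 0.357, edgeR adjusted p 0.754) and Tpsb2 at -0.62 (SE 0.248, edgeR adjusted p 0.607). Classical monocyte genes were lower for 6 of 6, by a median of -0.21, and for 3 of 6 without sedentary control 1, led by Hp at -0.64 (SE 0.429, edgeR adjusted p 0.695). Skin keratinocyte genes, of which Krt10 had the most counts, summed to 28.2 CPM in sedentary PBMT 4 and 9.99 CPM in sedentary PBMT 2, and to at most 5.65 CPM in every other mouse. The part of these cell types in the result was not tested.

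All 10 T and NK cell genes stayed under 1 CPM in every mouse, with a summed level from 0.132 to 0.654 CPM, and none passed the filter in any comparison. Of the 7 B cell genes, 6 stayed under 1 CPM, the exception being Ighm, which made up 98.0% of a B cell sum of 20.5 ± 8.73 CPM in sedentary control, 24.4 ± 6.95 CPM in sedentary PBMT, 26.7 ± 10.1 CPM in fatigued control and 30.3 ± 8.27 CPM in fatigued PBMT mice (SD, n = 6). Of the 7 dendritic cell genes 5 stayed under 1 CPM, the exceptions being Zbtb46 and Cd209a, chosen here after their values were seen. Zbtb46 made up 86.3% of the dendritic cell sum, and Hp 84.7% of the classical monocyte sum. How far these lists follow those cells was not tested. In sedentary muscle Ighm differed by 0.24 (SE 0.303, edgeR adjusted p 0.834) and Zbtb46 by -0.08 (SE 0.132, edgeR adjusted p 0.874). Endothelial genes were lower for 2 of 6, with Cdh5 at 0.06 (SE 0.119, edgeR adjusted p 0.889) and Kdr at 0.45 (SE 0.177, edgeR adjusted p 0.607). Lymphatic endothelial genes, of which Ccl21a had 0 counts, were lower for 2 of 5, with Flt4 at -0.10 (SE 0.131, edgeR adjusted p 0.840) and Reln at 0.42 (SE 0.229, edgeR adjusted p 0.665). Adipocyte genes were lower for 3 of 6, with Fabp4 at -0.02 (SE 0.131, edgeR adjusted p 0.970) and Lep at -0.19 (SE 0.402, edgeR adjusted p 0.905). Erythroid genes were lower for 3 of 5, with Hbb-bs at -0.04 (SE 0.207, edgeR adjusted p 0.967), and fast muscle fibre genes for 3 of 8, with Myh4 at 0.22 (SE 0.199, edgeR adjusted p 0.763). The directions of the endothelial, adipocyte and erythroid lists turned when single mice were left out. No gene of any cell type list was called in sedentary muscle by edgeR or DESeq2, and 4 passed an unadjusted p under 0.05, Ly6a and Tpsb2 lower, and Kdr and Tek, another endothelial gene, higher.

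Genes that work with the macrophage and myeloid genes were examined as 7 lists. Of the kinases, phosphatases, adaptors and further receptors of Fc receptor signalling, 11 of 12 tested were lower in sedentary PBMT mice, 4 of them at an unadjusted p under 0.05, with a median of -0.44. The lipid phosphatase gene Inpp5d differed by -0.60 (SE 0.174, edgeR adjusted p 0.349), and the receptor gene Sirpa, the most abundant of the list, by -0.24 (SE 0.168, edgeR adjusted p 0.701). Classical complement components and regulators were lower for 11 of 12, by a median of -0.31, with Cfp, the properdin gene, at -0.65 (SE 0.269, edgeR adjusted p 0.618) and Serping1 at -0.24 (SE 0.139, edgeR adjusted p 0.672). Chemokines of myeloid cells were lower for 6 of 8, by a median of -0.64, with Ccl6 at -0.89 (SE 0.198, edgeR adjusted p 0.168) and the most abundant, Cxcl12, at 0.10 (SE 0.0858, edgeR adjusted p 0.742). A list of further antigen presentation genes, which holds costimulatory genes and the regulator Ciita beside class II genes, was lower for 4 of 5, with H2-DMa, which loads peptides onto class II, at -0.63 (SE 0.264, edgeR adjusted p 0.632).

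Ligands of the CSF1 receptor and myeloid transcription factors were lower for 8 of 13, with Maf at 0.02 (SE 0.0861, edgeR adjusted p 0.953). That list also holds the receptor genes Csf2ra and Csf2rb. Cytokine and activation genes were lower for 6 of 7, with Retnla at -0.79 (SE 0.392, edgeR adjusted p 0.651) and Igf1 at -0.00018 (SE 0.203, edgeR adjusted p 1.00). Engulfment and lysosome genes were lower for 14 of 20, by a median of -0.11, with Mertk, a receptor for dying cells, at -0.38 (SE 0.136, edgeR adjusted p 0.552) and Lamp1, which most cells make, at 0.08 (SE 0.0669, edgeR adjusted p 0.741). In these 7 lists edgeR called 0 genes, 15 were lower at an unadjusted p under 0.05, and DESeq2 called 1 chemokine gene lower.

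Across all genes tested in sedentary muscle, longer genes had higher log2 fold changes (Spearman's rho 0.303 across genes, which are not independent replicates), and the macrophage and myeloid genes were shorter than most, with a median exon length of 2173 against 4211 bases. With that trend removed, a step added after seeing the data, 39 of 39 were lower, by a median of -0.64.

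In fatigued muscle the PBMT and control mice differed little and varied much. The summed level of the 42 genes was 278 ± 139 CPM in PBMT mice and 258 ± 77.6 CPM in control mice (SD, n = 6), a ratio of 1.08. Its lowest, median and highest values were 183, 234 and 393 CPM in control mice and 135, 241 and 534 CPM in PBMT mice, so that PBMT mice lay both below and above the whole control range. Of the 41 genes tested, 32 were higher and 9 lower. The median of their log2 fold changes was 0.22, over a range from -0.27 to 0.66, and 33 of 42 were higher when no filter was set, while 52.0% of all 14574 genes tested were higher. Both edgeR and DESeq2 called 0 members, and edgeR called 0.00% of all genes. At an unadjusted p under 0.05, 0 members were higher by edgeR, against 1.08% of all genes, and 0 members were higher without overlap, against 0.00686% of all genes.

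That direction rests on fatigued PBMT 5, which was the highest of the 12 fatigued mice for 36 of the 41 genes. Without it, 8 genes were higher, and the median was -0.17. The median was 0.11 without fatigued control 2, 0.10 without fatigued control 4 and 0.42 without fatigued control 5. Fatigued PBMT 1 was the lowest of the 12 mice for 24 genes. Among control mice, fatigued control 5 was the highest for 36 genes, and without it 40 genes were higher and 2 of them at an unadjusted p under 0.05. Without fatigued control 4, 1 was. Fatigued PBMT 5 also had the highest fibroblast sum, 4697 CPM against 1172 to 2433 CPM in the other 11 fatigued mice, and the highest neutrophil sum, 10.5 CPM. The part of these cell types in its levels was not tested.

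By role, the ratios of summed levels in fatigued muscle ran from 0.996 for the class II genes to 1.24 for the recruited markers. Without fatigued PBMT 5 all 9 ratios were below 1, from 0.784 for the recruited markers to 0.954 for the resident markers, with the Fc receptor and adaptor genes at 0.948. Without fatigued control 5 the class II ratio was 1.12. The C1q and C5ar1 genes were at 22, 30.5 and 50.1 CPM (lowest, median and highest) in control mice and at 18.3, 31.7 and 70.5 CPM in PBMT mice, a ratio of 1.09. The resident markers were at 29.1, 32.2 and 44.7 CPM in control mice and at 18.9, 36.0 and 67.2 CPM in PBMT mice, a ratio of 1.11. The recruited markers were at 1.68, 2.75 and 9.62 CPM in control mice and at 1.89, 3.35 and 13.7 CPM in PBMT mice. In each of these groups the PBMT range covered nearly the whole control range. The Ms4a genes were at 5.05, 6.92 and 14.7 CPM in control mice and at 4.99, 8.23 and 20.7 CPM in PBMT mice, a ratio of 1.19. The Fc receptor and adaptor genes were at 9.55, 12.8 and 24 CPM in control mice and at 8.82, 14.0 and 36.9 CPM in PBMT mice, a ratio of 1.22. Identity genes had a ratio of 1.09, with 15.9, 21.7 and 28.3 CPM in control mice against 13.2, 19.5 and 48.6 CPM in PBMT mice. For those genes the PBMT median was below the control median although the PBMT mean was above it. The lysosomal genes, at 32.0, 43.8 and 70.6 CPM in control mice and 25.4, 40.4 and 99.7 CPM in PBMT mice, had a ratio of 1.07. Pan-leukocyte genes were at 8.24, 11.5 and 22.9 CPM in control mice and at 7.02, 12.1 and 29.3 CPM in PBMT mice, a ratio of 1.15. The class II genes were at 54.3, 75.6 and 128 CPM in control mice and at 36.7, 76.9 and 147 CPM in PBMT mice, and on raw totals their ratio was 1.01.

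Siglece, at 0.108, 0.199 and 0.539 CPM in fatigued control mice and at 0.273, 0.365 and 0.583 CPM in fatigued PBMT mice, had the highest log2 fold change of the members, 0.66 (SE 0.364, exact permutation p 0.0563). All 6 PBMT mice were above the control median. Lyve1, at 3.00, 5.15 and 5.72 CPM in control mice and at 3.45, 5.39 and 13.9 CPM in PBMT mice, differed by 0.43 (SE 0.319, exact permutation p 0.468). Fcgr3, the activating Fc receptor gene, was at 3.23, 3.78 and 6.75 CPM in control mice and at 2.85, 4.41 and 10.5 CPM in PBMT mice, and differed by 0.40 (SE 0.298, exact permutation p 0.370). For both genes the groups overlapped, and the highest value was in fatigued PBMT 5. Cd14, at 1.21, 2.10 and 2.59 CPM in control mice and at 1.57, 1.88 and 4.73 CPM in PBMT mice, differed by 0.42 (SE 0.319, exact permutation p 0.392). Spi1, at 0.869, 1.12 and 3.24 CPM in control mice and at 1.35, 1.54 and 4.65 CPM in PBMT mice, differed by 0.47 (SE 0.391, exact permutation p 0.294). Spi1 encodes the transcription factor PU.1, and its value was 0.04 without fatigued PBMT 5 and 0.86 without fatigued control 5. Without fatigued PBMT 5, Lyve1 was at 0.05, Fcgr3 at 0.10 and Cd14 at 0.23. Cd14 was at 0.18 without fatigued PBMT 3, and Siglece at 1.04 without fatigued control 4.

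Adgre1, at 1.88, 3.03 and 4.48 CPM in fatigued control mice and at 1.37, 2.42 and 6.29 CPM in fatigued PBMT mice, differed by -0.0027 (SE 0.334, exact permutation p 0.820), and with single mice left out the value ran from -0.34 without fatigued PBMT 5 to 0.15 without fatigued PBMT 1. Ccr2, at 0.939, 1.69 and 6.28 CPM in control mice and at 0.878, 2.16 and 9.13 CPM in PBMT mice, differed by 0.28 (SE 0.614, exact permutation p 0.794), and by -0.49 without fatigued PBMT 5. The edgeR adjusted p was 1.00 for each of these 7 genes. Neither gene had a direction that held without the mice named.

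**Figure D3:**
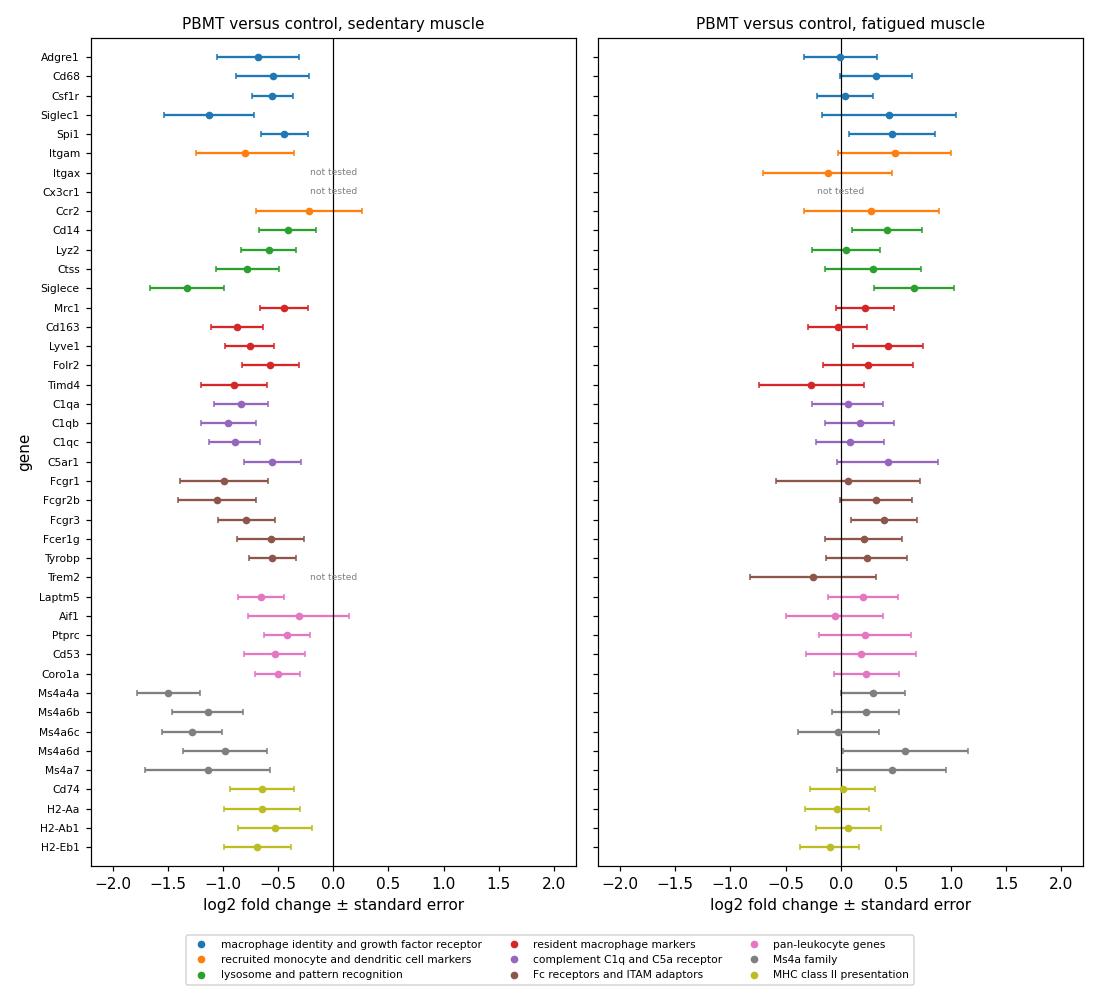
Log2 fold change of PBMT against control for each member in sedentary and in fatigued muscle, with the standard error, ordered by role. All 39 values in sedentary muscle lie below 0, between -1.49 and -0.22, and those in fatigued muscle lie between -0.27 and 0.66.

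Of the lists examined beside the members in fatigued muscle, the Fc receptor signalling genes were higher for 11 of 11 tested, by a median of 0.14, with Syk, the kinase recruited by Fc receptors, at 0.41 (SE 0.25) and Sirpa at 0.14 (SE 0.287). Classical complement genes were higher for 11 of 12, with Serping1 at 0.21 (SE 0.248) and Cd59a at 0.19 (SE 0.164). Myeloid chemokines were higher for 9 of 12, with Cxcl1 at 2.60 (SE 1.19), a gene at a mean of 0.214 CPM in control mice and 1.29 CPM in PBMT mice. Cytokine and activation genes were higher for 6 of 7, with Socs3, a feedback inhibitor of cytokine signalling, at 1.34 (SE 0.586). CSF1 receptor ligands and transcription factors were higher for 10 of 13, with Runx1 at 0.80 (SE 0.241). Engulfment and lysosome genes were higher for 15 of 20, with Lgmn at 0.21 (SE 0.171), and the further antigen presentation genes for 3 of 5, with the costimulatory gene Cd86 at 0.62 (SE 0.342). For 6 of these 7 lists the direction turned without fatigued PBMT 5. The genes higher then numbered 3 of 11 for Fc receptor signalling, 3 of 12 for complement, 3 of 12 for chemokines, 3 of 7 for cytokines, 6 of 20 for engulfment and 1 of 5 for antigen presentation, and 7 of 13 for CSF1 receptor ligands and transcription factors. The Fc receptor signalling sum was 57.2 CPM in that mouse and 17.9 to 29.0 CPM in the other 5 PBMT mice. Without fatigued control 2 the antigen presentation genes were higher for 2 of 5.

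Among cell type lists in fatigued muscle, fibroblast genes were higher for 8 of 8, by a median of 0.19, with Col1a2 at 0.32 (SE 0.400). Classical monocyte genes were higher for 4 of 4, with Plac8 at 1.07 (SE 0.715), neutrophil genes for 4 of 4, with S100a9 at 1.01 (SE 0.707), and dendritic cell genes for 3 of 3, with Zbtb46 at 0.26 (SE 0.155). Lymphatic endothelial genes were higher for 5 of 5, B cell genes for 2 of 2, endothelial and adipocyte genes for 4 of 6 each, erythroid genes for 3 of 5, mast cell genes for 2 of 5, keratinocyte genes for 0 of 1 and fast muscle fibre genes for 1 of 8. Without fatigued PBMT 5, fibroblast genes were higher for 1 of 8, by a median of -0.09, monocyte and neutrophil genes for 2 of 4 each, dendritic cell genes for 1 of 3, endothelial genes for 3 of 6, adipocyte genes for 1 of 6, erythroid and mast cell genes for 0 of 5 each and fast muscle fibre genes for 5 of 8. The ratio of neutrophil sums then went from 1.42 to 0.958. The adipocyte, erythroid, endothelial, mast cell and fibre directions also turned or became even without single other mice. No gene of these 20 lists was called by edgeR or DESeq2 in fatigued muscle, and 4 were higher at an unadjusted p under 0.05, all in the chemokine, cytokine and transcription factor lists.

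Whether the PBMT difference itself differed between fatigued and sedentary muscle was tested on the 24 mice as the fatigued minus the sedentary log2 fold change. It was above 0 for 41 of the 42 members, with a median of 0.85, while 53.7% of all 15108 genes tested were above 0. Without fatigued PBMT 5 the median was 0.49. No member was called by edgeR or DESeq2, beside 0.00662% of all genes (1 gene) called in either direction by edgeR. At an unadjusted p under 0.05, 13 members were above 0 by edgeR, against 2.95% of all genes. The edgeR count came to 25 without fatigued control 5, 22 without fatigued PBMT 1, 21 without sedentary control 6 and 8 without fatigued PBMT 5. State and sequencing project change together in this test, and both contrasts lie within a project.

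The Ms4a family had the highest median of this difference, 1.57, and 4 of its 5 genes passed an unadjusted p under 0.05. Ms4a4a differed by 1.79 (SE 0.415, edgeR adjusted p 0.430) and Siglece by 2.00 (SE 0.501, edgeR adjusted p 0.621). For these genes PBMT mice were below control mice at rest, and the groups overlapped after the run. Ms4a6b differed by 1.37 (SE 0.457), Lyve1 by 1.19 (SE 0.406) and Fcgr3 by 1.18 (SE 0.417), each with an edgeR adjusted p of 0.946. Ms4a6b stood at 0.373, 1.45 and 2.17 CPM in sedentary control mice and 0.414, 0.628 and 0.899 CPM in sedentary PBMT mice. In fatigued mice it stood at 0.893, 1.46 and 2.09 CPM without light and 0.741, 1.81 and 3.05 CPM with it. Fcgr3 stood at 1.65, 3.53 and 6.63 CPM in sedentary control mice and at 1.72, 2.10 and 3.02 CPM in sedentary PBMT mice. Medians by role were 0.98 for C1q and C5ar1, 0.95 for the lysosomal genes, 0.93 for the Fc receptors, 0.90 for the recruited markers, 0.87 for the identity genes, 0.82 for the resident markers, 0.72 for the pan-leukocyte genes and 0.61 for the class II genes. In the 20 lists edgeR and DESeq2 called 0 genes for this difference, and the Fc receptor signalling genes were above 0 for 13 of 13, the fibroblast genes for 8 of 8, the complement genes for 11 of 12 and the engulfment genes for 16 of 20.

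Fatigued and sedentary mice were compared as levels in 2 projects, where the run and the project cannot be told apart. Without light, 35 of the 42 members were higher in fatigued control mice, with a median log2 fold change of 0.32, and edgeR called 3 higher and 0 lower, against 9.10% of all genes called higher. Without fatigued control 5, 25 members were higher, with a median of 0.10. By unadjusted p under 0.05, 5 were higher and 1 lower, against 15.2% and 17.0% of all genes. DESeq2 called 4 members higher and 0 lower, and 1641 of 17740 genes higher. Cd163, the receptor that clears haemoglobin, rose from 4.74, 7.07 and 10.5 CPM to 11.4, 12.6 and 16.9 CPM, with no overlap, as for 4.08% of all genes. The fitted log2 fold change was 0.89 (SE 0.269, edgeR adjusted p 0.0239). Ms4a4a rose from 0.790, 1.48 and 2.43 CPM to 1.94, 2.45 and 3.93 CPM, by 0.88 (SE 0.284, edgeR adjusted p 0.0319). Cd14 rose from 0.714, 1.05 and 1.56 CPM to 1.21, 2.10 and 2.59 CPM, by 0.87 (SE 0.301, edgeR adjusted p 0.0445). For the latter pair the groups overlapped at their edges, with 4 of 6 fatigued mice above the highest sedentary mouse for each. Lyve1 differed by 0.76 (SE 0.285, edgeR adjusted p 0.0625), and Siglece by -0.79 (SE 0.346, edgeR adjusted p 0.113).

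The count of calls moved when single mice were left out. It was 0 without fatigued control 5, fatigued control 6 or sedentary control 5, 1 without sedentary control 4 or 6, 2 without fatigued control 2 or 3 or sedentary control 2, 4 without fatigued PBMT 1 or 4, sedentary control 1 or sedentary PBMT 3, and 5 without fatigued control 4 or fatigued PBMT 5. Without the filter on low counts it was 0 as well, and in a fit of the 12 control mice alone it was 5. The shares of all genes called in these fits are not given here. Cd14 was also not called without fatigued control 2 or 3 or sedentary control 2, and Lyve1 was called without fatigued control 4, fatigued PBMT 1, 4 or 5, or sedentary PBMT 3. The share of members called higher, 3 of 42, was near that of all genes. The pan-leukocyte genes had a median of -0.10 and the resident markers of 0.40.

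With light, fatigued mice had higher levels than sedentary mice for 42 of the 42 members, with a median of 1.14. edgeR called 30 higher and 0 lower, against 14.1% of all genes called higher, and 8 did not overlap, against 5.98%. DESeq2 called 30 as well, and 2369 of 18844 genes higher. This comparison holds the sedentary PBMT mice, whose low levels were described above, and shares them with the comparison at rest. Ms4a4a rose from 0.30, 0.506 and 0.720 CPM to 1.96, 2.74 and 6.51 CPM, by 2.67 (SE 0.310, edgeR adjusted p 8.62e-07). Lyve1 rose from 0.687, 1.80 and 2.30 CPM to 3.45, 5.39 and 13.9 CPM, by 1.96 (SE 0.295, edgeR adjusted p 3.18e-05). For both genes all 6 fatigued PBMT mice were above the highest sedentary PBMT mouse. Cd163 rose from 2.34, 3.56 and 7.05 CPM to 6.16, 12.4 and 20.9 CPM, by 1.74 (SE 0.278, edgeR adjusted p 8.36e-05), with 5 of 6 above. Cd14 rose from 0.451, 0.772 and 1.23 CPM to 1.57, 1.88 and 4.73 CPM, by 1.70 (SE 0.306, edgeR adjusted p 2.05e-04), and Ms4a6c from 0.343, 0.638 and 0.960 CPM to 1.31, 1.91 and 4.97 CPM, by 1.83 (SE 0.344, edgeR adjusted p 3.46e-04), both without overlap.

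By role, edgeR called 5 of 5 identity genes, 4 of 4 C1q and C5ar1 genes, 4 of 5 Ms4a genes, 4 of 5 resident markers, 4 of 6 Fc receptor and adaptor genes, 3 of 4 lysosomal genes, 3 of 4 class II genes, 2 of 4 recruited markers and 1 of 5 pan-leukocyte genes. Not called were Lyz2, Tyrobp, Aif1, Cx3cr1, Ccr2, Timd4, Ms4a7, Ptprc, H2-Aa, Trem2, Cd53 and Coro1a. Ptprc, the gene of the leukocyte surface protein CD45, differed by 0.41 and Ccr2 by 0.46, both given here after their values were seen. Without fatigued PBMT 5, 16 members were called, and the share of all genes called in that fit is not given here.

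In the same state comparisons, neutrophil genes were lower in fatigued mice. Their sum was 0.991 to 6.33 CPM in fatigued control mice and 1.64 to 10.5 CPM in fatigued PBMT mice, against 32.1 to 73.1 CPM in sedentary control mice and 2.12 to 78.6 CPM in sedentary PBMT mice. With light the ranges overlapped, as sedentary PBMT 1 and 2 lay at or below 6.98 CPM. Of 11 tested, 10 were called lower by edgeR without light and 9 with it. DESeq2 also called 10 and 9 lower, beside 1561 of 17740 genes without light and 1947 of 18844 genes with it. S100a8 was at a median of 9.75 CPM in sedentary control mice and 0.152 CPM in fatigued control mice. Fast muscle fibre genes were called higher for 4 of 8 without light, Myh4 by 0.86 (SE 0.173, edgeR adjusted p 0.00101), and for 3 of 8 with it. Fibroblast genes were called higher for 1 of 8 without light, Ly6a by 0.53 (SE 0.141, edgeR adjusted p 0.0108), and for 6 of 8 with it, Col1a1 by 1.69 (SE 0.421, edgeR adjusted p 0.00511). Lymphatic endothelial genes were called higher for 4 and 3 of 5, Flt4 by 0.50 (SE 0.116, edgeR adjusted p 0.00375) without light and 0.66 (SE 0.117, edgeR adjusted p 1.53e-04) with it. Classical monocyte genes were called higher for 1 of 6 without light and 3 of 6 with it, and dendritic cell genes for 1 and 2 of 3. With light, edgeR also called 1 of 6 adipocyte genes higher, 1 of 6 endothelial genes higher and 1 lower, and 1 of 3 B cell genes and the 1 keratinocyte gene tested lower, where DESeq2 called 3 keratinocyte genes lower. The part of these lists in the members' values was not tested.

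In the lists of macrophage pathways, edgeR called 2 of 20 engulfment genes, 1 of 12 chemokine genes, 1 of 12 complement genes and 3 of 13 CSF1 receptor ligands and transcription factors higher without light, and 1 of 8 cytokine genes lower. It called 0 of 13 Fc receptor signalling genes, of which 1 was higher and 1 lower at an unadjusted p under 0.05, and 0 of 6 further antigen presentation genes, none of which passed it. DESeq2 called 2 chemokine, 2 complement, 3 engulfment, 4 CSF1 receptor ligand or transcription factor genes and 1 cytokine gene higher. A cytokine gene and an Fc receptor signalling gene were among those it called lower. Without light, Axl and Mertk, receptors for dying cells, were higher by 0.75 (SE 0.15, edgeR adjusted p 0.00114) and 0.48 (SE 0.124, edgeR adjusted p 0.00803). Runx1 and Maf were higher by 1.86 (SE 0.280, edgeR adjusted p 6.03e-05) and 0.54 (SE 0.110, edgeR adjusted p 0.00118). Cxcl10, an interferon-induced chemokine gene, was higher by 4.24 (SE 0.854, edgeR adjusted p 0.00114), the interleukin 1 receptor antagonist gene Il1rn lower by -2.14 (SE 0.668, edgeR adjusted p 0.0264), and C1ra, a protease of the C1 complex, higher by 0.53 (SE 0.176, edgeR adjusted p 0.0382). With light, edgeR called 7 of 12 chemokine genes, 8 of 12 complement genes, 6 of 13 CSF1 receptor ligands and transcription factors, 3 of 8 cytokine genes, 8 of 20 engulfment genes, 4 of 13 Fc receptor signalling genes and 0 of 6 further antigen presentation genes higher, and 1 engulfment gene lower. Of the antigen presentation genes, 2 were higher at an unadjusted p under 0.05, and DESeq2 called 2 higher and 1 lower. Among the genes called with light, Syk rose by 1.44 (SE 0.244, edgeR adjusted p 1.05e-04), Ccl9 by 2.01 (SE 0.410, edgeR adjusted p 9.66e-04) and Grn, the progranulin gene, by 0.82 (SE 0.160, edgeR adjusted p 4.99e-04).

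Several members lie beside each other in the genome (GENCODE M21, GRCm38). The 5 Ms4a genes stand on chr19:11321039-11604849, the 3 C1q genes on chr4:136880129-136898803, the 3 class II chain genes on chr17:34257689-34316674, and Fcgr2b, Fcgr3 and Fcer1g on chr1:170958617-171234365. Values of neighbours in a cluster are therefore not independent where reads or regulation are shared, and neighbours differed in level by CPM per kb, from 0.105 for Ms4a7 to 2.34 for Ms4a4a.

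Promoter windows of 250 bases before the start were taken from RefSeq (GRCm38.p6) for 31 of the 42 members. Both strands were searched for GAGGAA, an extended core of the motif bound by ETS factors such as PU.1, and for ATTGG, the core of the Y box of class II promoters. GAGGAA was in 14 of the 31 members (45.2%) and in 25.9% of 27025 genes in the table, and ATTGG in 12 of 31 (38.7%) and in 37.5%. By role, GAGGAA was in 4 of 5 pan-leukocyte genes, 3 of 5 Fc receptor and adaptor genes, 2 of 3 C1q and C5ar1 genes, 2 of 3 lysosomal genes, the 1 identity gene matched and 1 of 4 resident and of 4 recruited markers each. Both class II genes matched, H2-Aa and H2-Eb1, held ATTGG, as did 3 of 4 resident markers, 2 of 4 recruited markers, 2 of 5 pan-leukocyte genes, the 1 identity gene, 1 of 3 C1q and C5ar1 genes, 1 of 5 Fc receptor and adaptor genes and 0 of 3 lysosomal genes. The 4 Ms4a genes matched held neither motif. A match describes letters in the window and shows no binding. The windows of C1qb on chr4:136886201-136886450, C1qc on chr4:136892915-136893164 and Siglece on chr7:43660162-43660411, all on the minus strand, are printed because they hold GAGGAA and these genes were among the 5 with the smallest p at rest. The windows of Ms4a4a and Ms4a6c, which had smaller p, hold neither motif and are not printed. Those of H2-Aa on chr17:34287824-34288073, minus strand, and H2-Eb1 on chr17:34305617-34305866, plus strand, show the class II motif. Capitals mark the matches on either strand, 5′ to 3′.
C1qb: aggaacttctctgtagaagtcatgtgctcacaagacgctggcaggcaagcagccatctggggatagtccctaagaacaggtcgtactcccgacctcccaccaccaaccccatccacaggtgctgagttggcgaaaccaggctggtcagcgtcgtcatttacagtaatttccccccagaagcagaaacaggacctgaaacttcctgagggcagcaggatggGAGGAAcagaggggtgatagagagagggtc
C1qc: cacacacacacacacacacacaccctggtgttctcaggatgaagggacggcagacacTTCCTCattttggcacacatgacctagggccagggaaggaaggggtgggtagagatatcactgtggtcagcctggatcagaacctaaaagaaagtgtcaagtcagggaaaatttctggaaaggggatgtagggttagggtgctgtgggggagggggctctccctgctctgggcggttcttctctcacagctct
Siglece: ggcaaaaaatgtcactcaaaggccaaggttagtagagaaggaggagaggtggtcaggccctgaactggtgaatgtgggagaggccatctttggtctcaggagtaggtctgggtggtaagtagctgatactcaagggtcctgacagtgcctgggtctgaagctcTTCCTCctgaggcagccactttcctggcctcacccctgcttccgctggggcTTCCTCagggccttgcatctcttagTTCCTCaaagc
H2-Aa: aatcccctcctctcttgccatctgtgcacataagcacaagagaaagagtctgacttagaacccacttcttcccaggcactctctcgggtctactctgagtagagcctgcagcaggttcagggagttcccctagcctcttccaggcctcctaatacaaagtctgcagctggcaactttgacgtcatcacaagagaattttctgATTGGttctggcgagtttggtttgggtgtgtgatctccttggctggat
H2-Eb1: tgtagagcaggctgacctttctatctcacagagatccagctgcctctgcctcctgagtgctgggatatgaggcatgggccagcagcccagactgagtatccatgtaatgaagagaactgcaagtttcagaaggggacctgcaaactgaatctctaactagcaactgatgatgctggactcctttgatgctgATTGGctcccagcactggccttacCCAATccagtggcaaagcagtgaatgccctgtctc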

How the data were processed

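The gene counts of 24 libraries were used as deposited by the authors. The submitters name Trimmomatic, STAR 2.7.1a, Picard 2.20.4, StringTie 2.0.4, featureCounts 1.6.0 and HTSeq on GRCm38, but do not state which step made the deposited counts or which strand setting was used. Of 55487 identifiers, 55227 matched GENCODE M21, from which symbols and exon lengths were taken. Genes were tested with edgeR 4.0.16 (quasi-likelihood, TMM factors, filterByExpr with a minimum count of 10) in R 4.3.3. It loads limma 3.58.1, which ran no test of its own. The p-values were adjusted over the genes tested by the Benjamini-Hochberg method, with a threshold of 0.05. A prior count of 2 was used for log2 CPM, as in the permutation tests, and was not set in the edgeR fit. The SE printed is the absolute log2 fold change divided by the square root of the F statistic. PBMT was tested against control within each project of 12 mice, and states and their difference in a fit of 24 mice. DESeq2 1.42.0, other size factors, other filters, a replicate block and leaving out each mouse were tried as alternatives. The steps were tested on simulated data. No pair of mice in a group was alike within sampling noise.

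The members, roles and lists were chosen with earlier results of these data known. Fold changes with errors and p are given for up to 5 members with the smallest unadjusted p in each comparison and for Adgre1, Lyve1 and Ccr2 in both PBMT comparisons. Of each list the rule names up to 3 genes past the threshold, otherwise the most abundant gene and the gene with the smallest p. Outside sedentary muscle the report prints only some of the list genes that this rule names, chosen after their values were seen, with the counts of each list. A result of 1 listed gene is not reported here.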

Additional observations from a re-analysis of the deposited data

Results flagged for a closer look

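A mouse stood apart from the other 5 of its group in 46 of 288 levels examined, where 14.4 would by chance at 1 in 20. The value given is the gap to the nearest mouse divided by the range of the group.

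Fatigued PBMT 5 was the highest of its group for Cd68 (0.784), Itgam (0.874), Ctss (0.75), Fcgr1 (0.762), Fcer1g (0.694), Tyrobp (0.787), Laptm5 (0.639), Ccr2 (0.828), Lyve1 (0.638), Folr2 (0.771), Timd4 (0.687), Ms4a4a (0.666), Ms4a6c (0.707), Ms4a6d (0.763), Siglec1 (0.656), Spi1 (0.857), Trem2 (0.722) and Coro1a (0.651). It was also the highest for the summed levels of the Fc receptors and adaptors (0.642), macrophage identity genes (0.642), Ms4a family (0.686), recruited markers (0.797), fibroblast genes (0.642), mast cell genes (0.628), neutrophil genes (0.781), classical complement list (0.709), Fc receptor signalling list (0.719) and further antigen presentation list (0.662).

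Fatigued control 5 was the highest of its group for Ctss (0.699), Fcgr3 (0.748), Fcer1g (0.656), Ms4a6c (0.706), Ptprc (0.647), Spi1 (0.666) and Coro1a (0.671). Fatigued control 2 was the highest for the keratinocyte sum (0.788).

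Sedentary PBMT 6 was the highest for Fcer1g (0.694) and sedentary PBMT 5 the lowest for Tyrobp (0.645). Sedentary PBMT 2 was the highest for the adipocyte sum (0.712) and the chemokine sum (0.634), and sedentary PBMT 4 for the keratinocyte sum (0.685). Sedentary control 3 was the highest for Aif1 (0.666) and the keratinocyte sum (0.668). Sedentary control 4 was the highest for the fast muscle fibre sum (0.733) and the CSF1 receptor ligand and transcription factor sum (0.77), and the lowest for the classical complement sum (0.64).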

How the results depend on the processing

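In sedentary muscle the count of members called was 0, against 2 with no filter, 5 with DESeq2, 25 at unadjusted p, and 0 to 3 with single mice left out. The count lower at an unadjusted p under 0.05 was 25, 16 with the 24 mice in one model, and 17 to 32 with single mice left out. Ccr2 was at 0.0051 with replicate number as a block and at 0.011 without sedentary control 1, with -0.44 to 0.011 over mice left out.

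In fatigued muscle the members higher numbered 8 to 40 with single mice left out, and those at an unadjusted p under 0.05 numbered 0 to 2, and 1 with the replicate block. The median was -0.17 to 0.42, and Ccr2 -0.49 to 0.81, both lowest without fatigued PBMT 5. Adgre1 was at 0.0020 with at least 10 counts in every sample, and at -0.34 to 0.15 with mice left out: 0.09, 0.13 and 0.04 without fatigued control 3, 5 and 6, and 0.15, 0.05, 0.07 and 0.07 without fatigued PBMT 1, 3, 4 and 6. The class II ratio was 1.01 on raw totals.

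For the difference between states 13 members passed at unadjusted p, and 8 to 25 with mice left out. Without light, the 3 calls between states became 0 with no filter, 6 at unadjusted p, 5 with the 12 mice alone and 0 to 5 with mice left out, where 4 to 8 were higher at an unadjusted p. With light, 16 to 31 were called with mice left out. With the replicate block 0, 0, 0, 3 and 21 members were called in the 5 comparisons. Shares of all genes called are not given here for fits with mice left out, another filter, the 12 mice alone or the replicate block. The labels state no pairing by number. Correlations of mice sharing a number ran from -0.072 to 0.066 in sedentary muscle, with the own number best for 1 of 6, and from -0.085 to 0.325 in fatigued muscle, with the own number best for 3 of 6, so pairing was not assumed. In fatigued muscle numbers 1, 3, 4 and 5 were at 0.219, 0.212, 0.144 and 0.325, and numbers 2 and 6 at -0.085 and 0.011. A treadmill session shared by number was not tested. Leaving out sedentary PBMT 1 and 2, removing the exon length trend and leaving out each mouse for the role and list values were added after seeing the data. The cause of these differences was not tested.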
